A study of Mus musculus with 16 samples.

Results

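The genes described here encode the machinery of retrograde transport in the cilium: 7 components or partners of intraflagellar transport complex A (Ift122, Ift140, Wdr19, Wdr35, Ttc21b, Ift43 and Tulp3) and 2 subunits of the motor dynein-2 (Dync2h1 and Dync2li1). These 9 genes, of 21887 protein-coding genes in the RefSeq table, were chosen by name. For each gene, all peaks of 3 CUT&RUN peak lists were taken whose midpoint lay inside the gene body or within 10 kb of either end, and those within 1 kb of an end were marked. CUT&RUN uses an antibody to bring a nuclease to a chromatin protein, so that DNA beside the protein is released and sequenced. The antibodies were against Foxn3 (4 libraries), Foxn4 (2 libraries) and Rfx3 (2 libraries), in retina of CD-1 mice, an outbred strain, at embryonic day 16. Each assay took about 300000 dissociated cells from pooled retinas, with no genetic change or treatment named for any group. Nuclease digestion lasted 1 h for Foxn3 and Rfx3 and about 12 h for Foxn4. The 8 immunoglobulin libraries (rabbit for Foxn3 and Rfx3, mouse for Foxn4) have no list of their own here and were not analysed.

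Each antibody has 1 list, with 2794 peaks for Foxn3, 2956 for Foxn4 and 3981 for Rfx3. Replicate error can thus be given for none of the values, no test was made, and read depth is unknown. A peak carries the authors' own score, whose scaling is not given in the sources used here. It is read only as the share of peaks in the same list that scored lower. The lists hold binding and no expression, so the tissue label could not be set against marker genes.

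Cilia are built and maintained by trains of intraflagellar transport proteins that run along the axoneme. IFT-B trains, pulled by kinesin-2, carry material to the tip, and IFT-A with the motor dynein-2 returns it to the base. IFT-A also works at the ciliary gate, where with the adaptor Tulp3 it brings receptors and other membrane proteins into the cilium. In the retina the photoreceptor outer segment is a modified cilium that depends on this traffic. Rfx3 is a winged-helix factor known for binding the X-box in promoters of ciliary genes, and Foxn3 and Foxn4 are forkhead factors.

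Foxn3 and Rfx3 marked the same end of 7 of the 9 genes (Ift122, Ift140, Ift43, Wdr19, Wdr35, Tulp3 and Dync2li1). Over the whole gene table, Foxn3 marked either end of 8.82% of genes and Rfx3 of 10.6%. Both factors marked 7.56%, a share that does not require the same end. Foxn4 marked 3 of the 9 genes (Ift122, Ift140 and Wdr19), against 4.84% of all genes, and these 3 were also the genes marked in every list, against 3.06% of all genes. At Dync2h1, Foxn3 and Rfx3 peaks lay 1289 and 1295 bp from the outermost annotated end, just beyond the limit, and Ttc21b had no peak of any list near either end. The next member inside the limit was Ift122, whose Foxn3 midpoint lay 213 bp from an end.

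**Figure D1:**
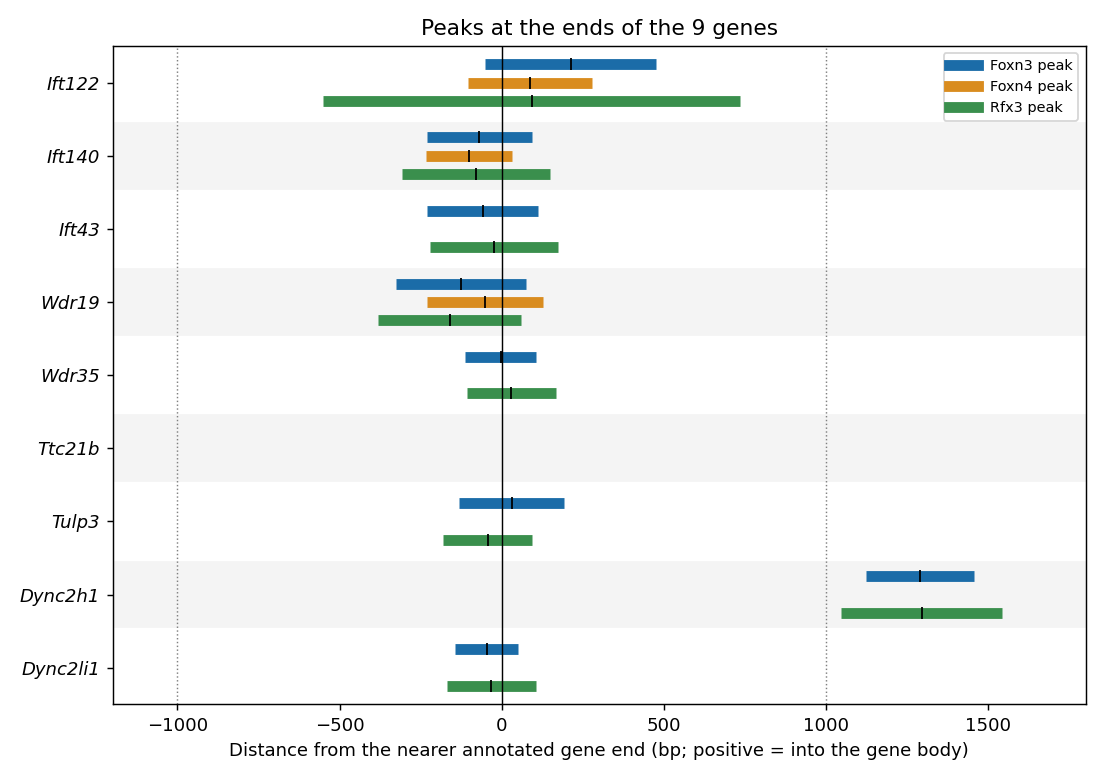
Peaks of the Foxn3, Foxn4 and Rfx3 lists (bars, with the midpoint as a black tick) at each of the 9 genes, by distance in bp from the nearer annotated gene end, with positive values running into the gene body and dotted lines at 1 kb. Foxn3 and Rfx3 bars lie over the same end of 7 genes, Foxn4 bars over that end of 3, the Dync2h1 bars lie past the 1 kb line, and the Ttc21b row is empty in this range.

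In the wider windows, 21 peaks were found, 8 of Foxn3, 3 of Foxn4 and 10 of Rfx3, and 17 of them lay within 1 kb of an end. A Foxn3 peak was present in the window of 8 members (15.2% of all genes), a Foxn4 peak in 3 (10.5%) and an Rfx3 peak in all 9 (19%). Longer genes offer wider windows. Among the 6967 genes as long as the members, 29094 to 249757 bp, the window shares were 17.3%, 12.5% and 22.4%. Peaks were concentrated at single ends: of the 18 ends of the members, 7 had a peak within 1 kb, never both ends of a gene. For the 5 of these genes whose strand is in the promoter table (Ift140, Ift43, Wdr19, Wdr35 and Tulp3), that end was the transcription start.

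The core IFT-A subunits Ift122, Ift140 and Wdr19 (IFT144 in its protein name) were the members with peaks of all 3 factors. Ift122 (chr6:115853379-115926699) had a Foxn3 peak at chr6:115853329-115853856 with a score of 149, above 92.2% of its list. Its Rfx3 peak at chr6:115852828-115854115 scored 566, above 94.8% of the list, and at 1288 bp was wider than 99.2% of Rfx3 peaks. The Foxn4 peak at chr6:115853276-115853657 scored 7.11, above 44.1% of its list, a score it shared with 393 peaks, itself included. Ift122 was thus near the top of the Foxn3 and Rfx3 lists and mid-list for Foxn4. All 3 peaks also lie within 1 kb of the transcription-start end of Mbd4, a DNA glycosylase gene of base excision repair on the minus strand. The body of Mbd4 overlaps that of Ift122 by 22 bp.

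Ift140 (chr17:25016083-25099499) carried the lowest-scoring end peak of the members in each list. The Foxn3 peak at chr17:25015851-25016175 scored 40.2, above 61.4% of its list. The Rfx3 peak at chr17:25015775-25016231 scored 79, above 51.5%, and the Foxn4 peak at chr17:25015848-25016116 scored 5.33, above 15.4%. The transcription-start end of Cramp1l, on the opposite strand, lies 243 bp away. The same peaks thus lie within 1 kb of the start ends of both genes. At the far end Telo2, a cofactor of kinases of the PI3K-like family, lies 70 bp away, and Tmem204 lies inside the body of Ift140. Neither had a peak within 1 kb of its ends. The promoter window of Ift140, from RefSeq (build GRCm38.p6, plus strand, chr17:25015836-25016135, 250 bases before to 50 after the start), is shown because it lay in peaks of all 3 factors, over 95% of its length for Foxn3, 89.7% for Foxn4 and 100% for Rfx3. Capitals here and in the other windows mark one arm of the X-box, GTTGCC, and the forkhead-like site GACGC. Where a copy lies on the other strand, its reverse complement is in capitals.
Ift140: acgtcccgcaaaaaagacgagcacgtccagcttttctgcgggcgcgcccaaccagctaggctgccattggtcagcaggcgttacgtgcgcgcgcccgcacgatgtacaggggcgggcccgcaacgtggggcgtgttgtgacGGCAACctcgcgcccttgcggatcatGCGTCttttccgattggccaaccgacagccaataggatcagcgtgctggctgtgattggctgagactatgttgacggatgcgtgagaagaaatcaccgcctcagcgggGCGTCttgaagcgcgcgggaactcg

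Wdr19 (chr5:65199696-65260415) had the highest-scoring Foxn3 end peak of the members, at chr5:65199370-65199771, with a score of 158, above 92.8% of its list. Its Rfx3 peak at chr5:65199315-65199756 scored 108, above 63%, and ranked sixth of the 7 member end peaks in that list. The Foxn4 peak at chr5:65199464-65199822 scored 6.22, above 29.3%. No other gene had an end within 1 kb of these peaks. Wdr19 is therefore the one gene of the 9 with all 3 factors at an end that no neighbour shares. Rfc1, a DNA replication factor gene 1437 bp beyond the other end, had no peak within 1 kb of its ends.

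The peripheral IFT-A subunits Ift43, Wdr35 and Ttc21b had no Foxn4 peak in their windows. Such a peak was present for 10.5% of all genes and 12.5% of genes as long as the members, so its absence from 3 genes is near the background. The difference from the 3 core genes was not tested, and with Foxn4 peaks at or above the list median Ift122 alone of the core was marked. Ift43 (chr12:86082561-86162459) had a Foxn3 peak at chr12:86082332-86082674 with a score of 114, above 88.4% of its list. Rfx3 lay at chr12:86082341-86082735 with a score of 158, above 73.8%. A second Rfx3 peak at chr12:86168773-86169092, above 47.8% of the list, lay 6473 bp beyond the other end of Ift43 and within 1 kb of an end of the long non-coding RNA gene Gm805. Wdr35 (chr12:8973998-9028848) had Foxn3 at chr12:8973886-8974104, with a score of 43.9, above 65%, and Rfx3 at chr12:8973892-8974165, with a score of 176, above 76.6%. These Wdr35 peaks were narrow, 219 and 274 bp, narrower than all but 5.3% of Foxn3 and 7.46% of Rfx3 peaks. No other gene had an end within 1 kb of the start peaks of Ift43 or Wdr35. Their RefSeq windows, both on the plus strand (chr12:86082311-86082610 and chr12:8973751-8974050), are shown because they hold 2 copies of the forkhead-like site and 1 X-box arm, respectively, inside peaks of both factors.
Ift43: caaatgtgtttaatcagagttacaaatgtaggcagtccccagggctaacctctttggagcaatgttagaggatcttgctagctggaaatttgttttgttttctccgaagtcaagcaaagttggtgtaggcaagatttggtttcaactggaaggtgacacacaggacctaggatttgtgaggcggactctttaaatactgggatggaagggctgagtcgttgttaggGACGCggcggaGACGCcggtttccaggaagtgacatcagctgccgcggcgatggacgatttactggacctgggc
Wdr35: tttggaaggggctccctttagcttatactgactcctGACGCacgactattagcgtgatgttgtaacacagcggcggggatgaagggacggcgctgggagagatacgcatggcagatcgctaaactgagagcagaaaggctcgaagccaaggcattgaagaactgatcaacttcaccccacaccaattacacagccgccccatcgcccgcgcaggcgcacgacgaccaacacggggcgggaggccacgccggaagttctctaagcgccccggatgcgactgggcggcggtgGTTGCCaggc

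Ttc21b (chr2:66183787-66256674), a subunit mutated in ciliopathies with cystic kidneys, was the exception. Its transcription start on the minus strand had no peak of any list, and the nearest peak was an Rfx3 peak at chr2:66177977-66178632, 5483 bp beyond the 3' end of the gene. That peak scored 64, above 42.6% of the Rfx3 list, and overlapped no peak of another list. No other protein-coding gene lies in the 10 kb window. The nearest Foxn3 peak was 768645 bp and the nearest Foxn4 peak 840994 bp from the gene. Its window (chr2:66256568-66256867, minus strand, given 5' to 3' along the gene) is shown as the start without peaks.
Ttc21b: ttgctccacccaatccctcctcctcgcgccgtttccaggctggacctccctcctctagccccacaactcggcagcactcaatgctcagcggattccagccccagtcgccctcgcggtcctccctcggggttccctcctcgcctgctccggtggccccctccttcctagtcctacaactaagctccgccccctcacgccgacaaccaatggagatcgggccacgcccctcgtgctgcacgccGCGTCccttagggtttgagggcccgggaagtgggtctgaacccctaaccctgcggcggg

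Tulp3 (chr6:128321140-128355873), the adaptor through which IFT-A brings membrane receptors to the cilium, had peaks at its start on the minus strand. The Foxn3 peak at chr6:128355680-128356004 scored 66.3, above 77.7% of its list. The Rfx3 peak at chr6:128355779-128356053 scored 160, above 74.1%. Their midpoints lay 74 bp apart, and no Foxn4 peak was in the window. Rhno1, a DNA damage response gene, lies 1126 bp away and had no peak midpoint of any list within 1 kb of its ends. The nearer edges of both Tulp3 peaks do lie within 1 kb of Rhno1. The other members of the tubby family (Tub, Tulp1, Tulp2 and Tulp4) had no gene-end peak in any list, 0 of 4 genes, and 1 of the 4 had an Rfx3 peak in its 10 kb window. With 8.82%, 4.84% and 10.6% of all genes marked by Foxn3, Foxn4 and Rfx3, a count of 0 in 4 genes is near the background.

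The dynein-2 genes both carried Foxn3 and Rfx3 without Foxn4. A Foxn4 peak was in the window of 10.5% of all genes, so its absence from both is near the background. Dync2li1 (chr17:84626475-84655568), the light intermediate chain, had the highest-scoring Rfx3 end peak of the members, at chr17:84626306-84626580, with a score of 655, above 96.1% of the list. Its Foxn3 peak at chr17:84626330-84626526 scored 48.6, above 68.5%, and was the narrowest of the Foxn3 end peaks of the members, at 197 bp. No other gene had an end within 1 kb of it.

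Dync2h1 (chr9:6928550-7178306), the motor heavy chain, had Foxn3 at chr9:7176851-7177184, with a score of 147, above 92.1% of the list, and Rfx3 at chr9:7176763-7177259, with a score of 292, above 86.5%. The RefSeq promoter table places a start of Dync2h1 at chr9:7177058, inside the outermost annotated end, and the midpoints lay 41 and 47 bp from it. Counted from either end or such a start, a rule chosen after seeing the data, the count rose to 8 of 9 for Foxn3 and for Rfx3, with Dync2h1. The share of all genes under this wider rule was not computed. Dcun1d5, a gene of cullin neddylation on the opposite strand, overlaps Dync2h1 by 1717 bp. Both peaks lay inside Dcun1d5 and within 1 kb of its transcription-start end. The window (chr9:7177009-7177308, minus strand, given along the gene) is shown because it places the peaks at this inner start.
Dync2h1: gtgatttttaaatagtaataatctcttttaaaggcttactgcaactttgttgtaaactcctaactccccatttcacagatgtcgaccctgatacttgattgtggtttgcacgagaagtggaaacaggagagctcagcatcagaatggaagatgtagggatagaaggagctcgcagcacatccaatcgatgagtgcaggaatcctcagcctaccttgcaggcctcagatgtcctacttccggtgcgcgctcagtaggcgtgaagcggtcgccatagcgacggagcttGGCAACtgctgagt

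Where Foxn3 and Rfx3 both had a peak near a member's end or start, 8 genes with Dync2h1 included, the 2 peaks always overlapped. Midpoints lay 6 to 121 bp apart (median 34 bp), and the overlap covered 82.2% to 100% of the shorter peak. Over all 1353 overlapping Foxn3 and Rfx3 pairs at gene ends the median was 46 bp (quartiles 21 and 90 bp). The largest separation, 121 bp, was at Ift122, where the Rfx3 peak was widest. The 3 Foxn4 peaks overlapped both other factors, with midpoints 31 to 126 bp from Foxn3 and 5 to 108 bp from Rfx3. Foxn4 accompanied both factors in 3 of 7 members, beside 669 of 1654 genes in all (40.4%), so the share of Foxn4 among such members is near the share over all genes with both. Relative to the RefSeq start, the Foxn3 and Rfx3 midpoints of the 6 members with a window and a peak ran from 161 bases before (Rfx3 at Wdr19) to 47 bases after it (Rfx3 at Dync2h1).

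Within the lists, the members' Foxn3 and Rfx3 peaks sat in the upper part. All 7 Foxn3 end peaks scored at or above the list median, as did 54.8% of all 1581 Foxn3 peaks at gene ends, and all 7 Rfx3 end peaks did, as did 48.2% of 1941. The median member peak scored above 77.7% of the Foxn3 list and 74.1% of the Rfx3 list, and the median of all gene-end peaks above 52.8% and 46.4%. For Foxn4 the picture differed: the 3 member peaks scored above 15.4% to 44.1% of the list, and the median of 877 gene-end peaks above 44.1%, as did Ift122. Foxn4 scores were heavily tied, however. The scores of Ift140, Wdr19 and Ift122 were held by 409, 439 and 393 peaks, so these positions are coarse. The order of the genes was not the same in the 2 lists with 7 peaks. Wdr19 was first for Foxn3 and sixth for Rfx3, Dync2li1 was the fifth for Foxn3 and first for Rfx3, and Ift140 was last in both. With 1 list per factor, whether neighbours in these orders differ was not tested.

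**Figure D2:**
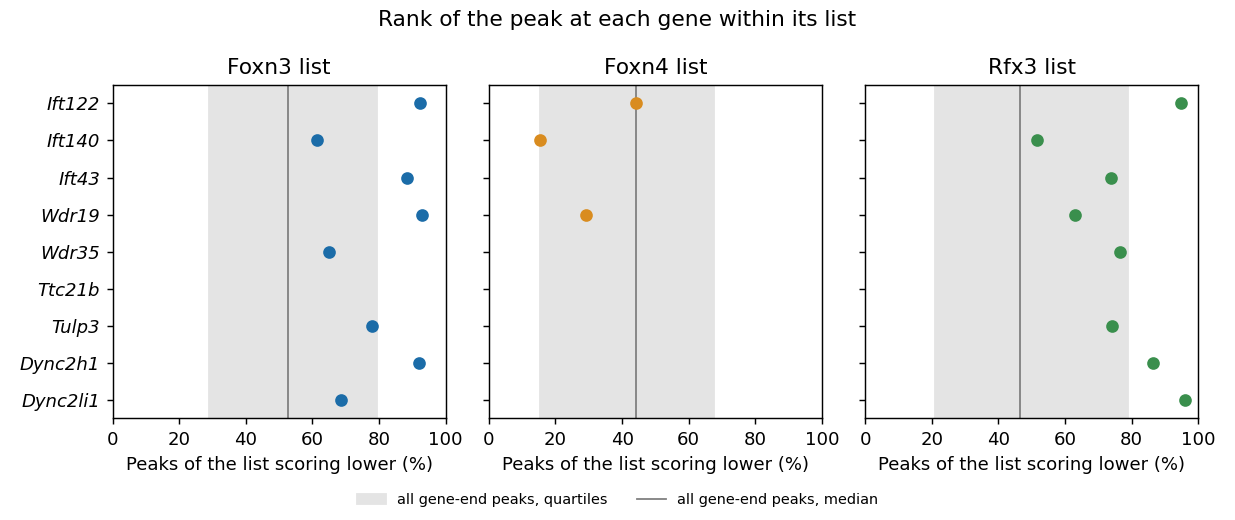
Share of peaks in the same list that scored lower (%), for the peak at each gene in the Foxn3, Foxn4 and Rfx3 lists (points), with the median (line) and quartiles (grey band) of all gene-end peaks. The Foxn3 and Rfx3 points of the 8 genes with a peak near an end or start lie to the right of the line (Ttc21b, with a distant Rfx3 peak above 42.6% of the list, has no point), from 61.4% to 92.8% and from 51.5% to 96.1%, and the 3 Foxn4 points lie at or left of it.

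The genes whose scores across the 3 lists were most like those of a fully marked member were found by Euclidean distance over the 3 within-list percentages, among the 669 genes marked in every list. For Ift122 and Ift140 the nearest was the neighbour that shares their peaks, Mbd4 and Cramp1l, at a distance of 0. Next to Ift122 came Qtrt2 and Ccdc191, both at 0.703 and with identical percentages in all 3 lists, so that they count as 1 match, and next to Ift140 came Bsdc1 at 4.98 and Hmbox1 at 9.71. The nearest to Wdr19 were Tmem218 at 12, Gm973 at 13.3 and Fam161b at 15.6.

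Short motifs were searched on both strands in the 7 promoter windows that the table holds (those of all members but Ift122 and Dync2li1), and in all 21263 windows of protein-coding genes, some of which have several starts. The full X-box (GTTNCC, 2 bases, GGNAAC) was in none of the 7, beside 0.428% of all windows and 2.78% of the 1691 windows with both Foxn3 and Rfx3 within 1 kb of the start. Up to 1 mismatch in its 10 fixed letters also gave none, beside 2.61% and 13.5%. Up to 2 mismatches gave Ift140 and Wdr19, beside 14.2% and 32.1%. The single arm GTTGCC was in 3 windows (Ift140, Wdr35 and Dync2h1), beside 12.6% and 26.7%, and each of these copies lay inside the Foxn3 and Rfx3 peaks. All 3 were among the 6 member windows with both factors, which leave out Ttc21b. The arm stands 109 bases before the start in Ift140, 40 after it in Wdr35 and 36 after it in Dync2h1, counted to its first base. The Wdr35 copy lies at the edge of its window, so a full X-box running on past the window could not be scored there. Spacers other than 2 bases were not searched, nor were forms with alternative letters at the fixed positions, apart from the mismatches above. The absence of a full X-box thus holds for this form alone.

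The forkhead-like site GACGC was in 5 windows (Ift140, Ift43, Wdr35, Tulp3 and Ttc21b), beside 33.4% of all windows and 56.7% of those with both factors. Without Ttc21b, which has neither factor at its start, the site was in 4 of 6 member windows, near the share of windows with both. Ttc21b, the start without peaks, held 1 copy, and the Wdr35 copy lay outside its peaks. In Ift43, Tulp3 and Ift140 there were 2 copies each, all inside Foxn3 and Rfx3 peaks. The forkhead site TGTTTA was in 1 window, that of Ift43, 244 bases before the start and outside its peaks, beside 11.5% and 7.1%. The arm GTTGCC is 1 version of the outer letters of the full X-box, so the searches overlap, and in Ift140 the arm is the second part of the match with 2 mismatches. Windows with both factors held a median of 22 CG pairs against 13 in all windows, and the members held 12 (Ift43 and Dync2h1) to 35 (Ift140). The part of this in the GACGC shares was not tested.

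**Figure D3:**
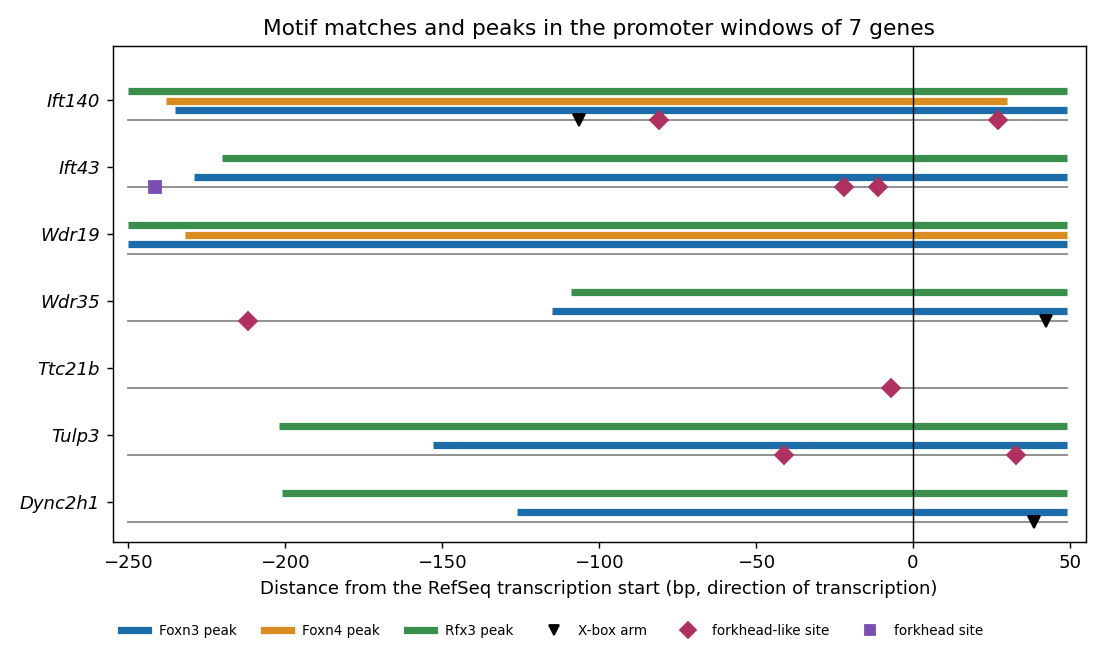
Promoter windows of the 7 members in the RefSeq table, by distance in bp from the transcription start in the direction of transcription, with the stretches inside Foxn3, Foxn4 and Rfx3 peaks (coloured bars) and matches to the X-box arm, the forkhead-like site and the forkhead site (symbols on the grey line). Arm matches in Ift140, Wdr35 and Dync2h1 lie under Foxn3 and Rfx3 bars, and the Ttc21b window has a forkhead-like match and no bar.

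Genes of the neighbouring transport complexes were counted in the same way. Of 12 other dynein-2 subunit genes, Foxn3 marked 4 (33.3%), Foxn4 1 (8.33%) and Rfx3 5 (41.7%), beside 8.82%, 4.84% and 10.6% of all genes. The Foxn4 share, from 1 gene, is near that of all genes. Dynll1, a light chain shared with cytoplasmic dynein, was marked in all 3 lists (above 74.3% of peaks for Foxn3, 81.1% for Foxn4 and 79.1% for Rfx3), and Gm13830 also has an end within 1 kb of these peaks. The remaining marked genes, named after their values were seen, included Wdr34 and Wdr60, which encode the dynein-2 intermediate chains. Wdr34 scored above 83.3% of peaks for Foxn3 and 94.7% for Rfx3, and Wdr60 above 88.5% and 68.9%. The light chain gene Dynlrb2 scored above 94.8% and 94.3%, and Tctex1d2 had an Rfx3 peak alone, above 73.7%. The subunits without a gene-end peak in any list numbered 7 and were the light chains Dynlrb1, Dynll2, Dynlt1a, Dynlt1b, Dynlt1c, Dynlt1f and Dynlt3. The 4 Dynlt1 genes are near-identical copies, so the absence of peaks there is uncertain.

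Of 18 IFT-B genes, which act in anterograde transport, Foxn3 marked 10 (55.6%), Rfx3 11 (61.1%) and Foxn4 3 (16.7%), beside 77.8%, 77.8% and 33.3% of the 9 retrograde genes. In windows reaching 10 kb beyond the genes, Foxn3 had a peak in 16 of 18 IFT-B and 8 of 9 retrograde genes, so that the Foxn3 shares were alike, Rfx3 in 13 and 9, and Foxn4 in 3 and 3. Over all genes the window shares were 15.2% for Foxn3, 19% for Rfx3 and 10.5% for Foxn4. The Foxn4 count of 3 in 18 IFT-B genes is near that share. Ift27 was the IFT-B gene marked in every list, above 45.7% of peaks for Foxn3, 86% for Foxn4 and 62% for Rfx3. The other IFT-B genes marked by Foxn4 were Hspb11 and Ift20, the latter by Foxn4 alone. At Hspb11, Ift20 and Ift80, the neighbours Lrrc42, Tnfaip1 and Smc4, respectively, also have an end within 1 kb of a counted peak. Ttc30a1, Ttc30a2 and Ttc30b are near-identical copies whose peaks are uncertain. Ttc30a1 and Ttc30a2 are adjacent, so the Foxn3 peak at an end of Ttc30a1 lies in both windows and counts for both genes among the 16. With peaks at or above the list median alone, 6 IFT-B genes kept a Foxn3 peak and 10 an Rfx3 peak, and all 7 retrograde genes kept both. Foxn4 then marked 2 of 18 IFT-B genes and 1 of 9 retrograde genes, which is the same share. Of 5 kinesin-2 genes, Rfx3 marked 2 (Kif3b and Kif17, named after their values were seen) and the other factors none. Over all genes, Rfx3 marked 10.6%, Foxn3 8.82% and Foxn4 4.84%, so none of 5 genes is near the background for Foxn3 and Foxn4. In the 10 kb windows of kinesin-2 genes, Foxn3 had a peak in 3 of the 5, Rfx3 in 4 and Foxn4 in 0. With 9 and 18 genes and 1 list per factor, the difference between the complexes was not tested.

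**Figure D4:**
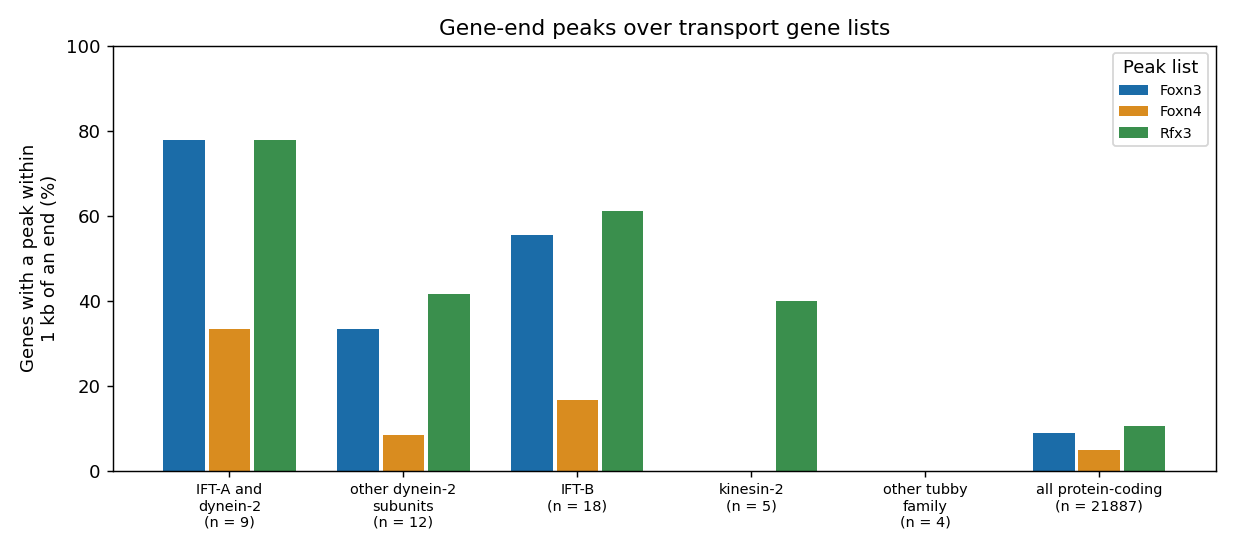
Share of genes (%) with a Foxn3, Foxn4 or Rfx3 peak within 1 kb of an end, for the 9 IFT-A and dynein-2 genes, other dynein-2 subunits, IFT-B, kinesin-2 and other tubby family genes and all 21887 protein-coding genes. The bars of the 9 genes stand at 77.8%, 33.3% and 77.8%, those of IFT-B at 55.6%, 16.7% and 61.1%, and those of all genes at 8.82%, 4.84% and 10.6%.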

How the data were processed

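CUT&RUN was done on retina of CD-1 mouse embryos, in 8 antibody and 8 immunoglobulin libraries. The submitters' processing notes name cutadapt, Bowtie2, UMI-tools, bedtools and the peak caller SEACR, without roles, versions or thresholds. The authors deposited 1 peak list per antibody, on mm10 per the file headers, with a score per peak. How libraries were combined and how immunoglobulin controls were used is not given in the sources used here. Coordinates were converted to count from 1. Gene bodies came from the RefSeq table of GRCm38.p6 (chromosomes 1 to 19, X and Y), the same assembly, which has no exons, and starts, strands and sequences from a RefSeq promoter table that held 7 of the 9 members. The midpoint of a peak had to be at most 1 kb from either end of a gene to mark it. Peaks overlapping by at least 1 bp were shared. A peak's rank is the share of its list with a lower score. The rules were tested on simulated data. All listed pathway symbols, older symbols included, matched a gene. The named genes are the members, genes with an end within 1 kb of their peaks, pathway genes marked in every list and the 3 genes most like each fully marked member. Also named are some other neighbours of members and of pathway genes, and further pathway genes, some of them chosen after their values were seen. Members and lists were chosen with earlier results of these data known. Alternatives varied the distance, flank, score, width, overlap and motif rules. Python 3.11.15, pandas 2.3.3, NumPy 2.4.6 and matplotlib 3.10.9 were used.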

Additional observations from a re-analysis of the deposited data

How the results depend on the processing

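Of 67 alternative values for 17 counts, 55 stayed within 1.5 times the reported count. The Foxn3 and Rfx3 counts of 7 members held the same genes at 500 bp, with any base of a peak, with peaks of at least 150 bp and with peaks at or above the list median. The first 3 of these settings could remove no gene. The farthest midpoint was 213 bp from an end, the narrowest end peak was 197 bp, and the any-base rule can only add genes. Such settings are among the 55. Both counts became 8, with Dync2h1, at 2 kb, at 5 kb and, in an alternative chosen after seeing the data, with starts of the promoter table. The shares of all genes under these wider rules were not computed. Counted from transcription starts alone, which the table gives for 7 members (not Ift122 or Dync2li1), Foxn3 and Rfx3 marked 6 each, Dync2h1 and 5 genes of the reported 7, and Foxn4 marked 2. Of all 17492 genes with such a start, Foxn3 marked 9.67%, Rfx3 11.6% and Foxn4 5.29%. With peaks at or above the list median, Foxn4 marked 1 member (Ift122, whose score equals the median), as did all 3 lists, 1 Foxn4 peak was in the windows, and Foxn4 peaks overlapped Foxn3 and Rfx3 in 1 member each. Without a flank, the gene bodies held 3 Foxn3, 1 Foxn4 and 3 Rfx3 peaks. The next alternatives, on motifs and IFT-B, were also chosen after seeing the data. Inside Foxn3 or Rfx3 peaks alone, the forkhead-like site was in 3 members and the forkhead site in 0. With 2 mismatches allowed, the full X-box was in 2. With peaks at or above the list median, 6 IFT-B genes had a Foxn3 end peak. Searching whole peaks was not run, because no genome was used here. No paired analysis was possible because each antibody has 1 list that separates no replicates. Read depth per library is unknown, so how far it limits the absence of Foxn4 peaks was not tested.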
